A study of Mus musculus with 3 samples.

Results

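The transcripts of 5 cytokine receptor chains, Il10ra, Il10rb, Il2ra, Il2rb and Il2rg, were followed across the leukocytes of KP1 tumors. They were chosen by name as the chains of the IL-10 and IL-2 receptors, and all 5 were found by symbol among the 33696 genes of the matrices. Their identifiers are ENSMUSG00000032089 (Il10ra), ENSMUSG00000022969 (Il10rb), ENSMUSG00000026770 (Il2ra), ENSMUSG00000068227 (Il2rb) and ENSMUSG00000031304 (Il2rg).

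IL-10 binds a receptor of IL-10Rα, the chain that gives the receptor its specificity, and IL-10Rβ, a chain that receptors for IL-22 and interferon-λ also use. This receptor signals mainly through Jak1, Tyk2 and STAT3 and is best known for restraining macrophages and dendritic cells, although activated CD8 T cells respond to it too. IL-2 binds IL-2Rα (CD25), IL-2Rβ (CD122, shared with IL-15) and the common γ chain, and signals mainly through Jak1, Jak3 and STAT5. Regulatory T cells carry CD25 constitutively, recently activated T cells gain it, and NK cells and memory T cells carry CD122. Mono-IL-10 is an engineered monomeric IL-10 that engages the IL-10 receptor chains, whereas the IL-10/2-Trikine adds to it an IL-2 form that binds IL-2Rβ without the common γ chain, so that Il10ra, Il10rb and Il2rb encode the chains it was built to bring together.

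Wild-type B6129SF1/J (F1) mice were inoculated subcutaneously with 500000 cells of KP1, a mouse small-cell lung cancer (SCLC) line that lacks Rb and p53. They received 3 µg of mono-IL-10 (labelled Supermono-10) or of IL-10/2-Trikine intraperitoneally on alternate days between day 7 and day 19, and tumors were taken on day 19. The first cytokine day is that of the labels, and the study's text also gives day 5 for this tumor model. In the group labelled 10/2-Trikine + PD1, called the combination here, mice also received 4 injections of 200 µg of the anti-PD-1 antibody RMP1-14, the first on day 7 and the last on day 19. The protocol can be read as giving this antibody to every group. Only the combination has it among its treatment labels, which were followed, and under the other reading the contrast of combination and Trikine would not measure PD-1 blockade. Live CD45+ cells were sorted after a density gradient and sequenced as 1 library per group, and the number of mice behind a library was not given in the sources used here. Mice were 5 to 6 weeks old when bought, per the methods. Untreated tumors were not analysed here.

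The 3 libraries held 158570946 to 197176873 unique molecular identifiers (UMIs), and 71909 barcodes were kept as cells, 22235 from mono-IL-10, 22707 from Trikine and 26967 from the combination, with median depths of 4774, 5562 and 4273 UMIs. Between 137 and 180 barcodes were shared by any pair of libraries. The labels call the cells T cells, but 27236 fell into T cell-like clusters, where Cd3e was found in 89.4% to 92.6% of cells per library, and the others held NK, myeloid and B cell markers. KP1 tumor cell-like cells with Chga and Uchl1 numbered 2764 in spite of the CD45+ gate, and they served here as cells that should lack Il10ra and the 3 IL-2 receptor chains. Clusters in which Cd3e and markers of another type stood together were kept apart. Of these, the Cd3-rich NK receptor cluster had Cd3e in 86.5% to 93.0% of its cells, the NK receptor gene Klra7 in 56.4% to 66.6% and the γδ T cell constant gene Trdc in up to 27.6%. The 5 chains were not used for clustering.

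A level is the UMIs of a gene in a cell class of 1 library, divided by all UMIs of that class there and scaled to 1000000 (CPM), with an exact Poisson 95% interval. A difference between libraries is the log2 ratio of 2 levels, with an exact conditional binomial 95% interval. With 1 library per group there was no test of treatment. The intervals cover counting error only, not the spread between mice, and a difference of treatments cannot be told apart from a difference of libraries. UMIs from the 3′ end were counted, and levels were compared within a gene and not between genes.

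Il10ra was highest in macrophage-like, monocyte-like, cDC2-like and neutrophil-like cells and lower in T, NK and B cells. In macrophage-like cells its level was 203 CPM (198 to 209) in the mono-IL-10 library, 173 CPM (165 to 181) in the Trikine library and 176 CPM (171 to 181) in the combination library. Monocyte-like cells gave 166, 189 and 186 CPM, cDC2-like cells 142, 140 and 163 CPM and neutrophil-like cells 150, 139 and 152 CPM. Among 18 classes with at least 30 cells in each library, macrophage-like and monocyte-like cells led and their ranges over the libraries overlapped, as did those of cDC2-like and neutrophil-like cells next in order. Below these 4 came a step without overlap, and from there down to KP1 tumor cell-like cells every class overlapped its neighbor in the order. Macrophage-like cells held 36.0%, 19.0% and 36.1% of the Il10ra UMIs of kept cells other than KP1 tumor cell-like cells in the 3 libraries. Monocyte-like cells held 14.2%, 23.1% and 20.6%, and a separate macrophage cluster with T cell transcripts 16.3%, 10.2% and 9.11%. CD8 T-like cells, the T cell subset with the largest part in each library, held 8.74%, 5.82% and 6.16%.

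**Figure D1:**
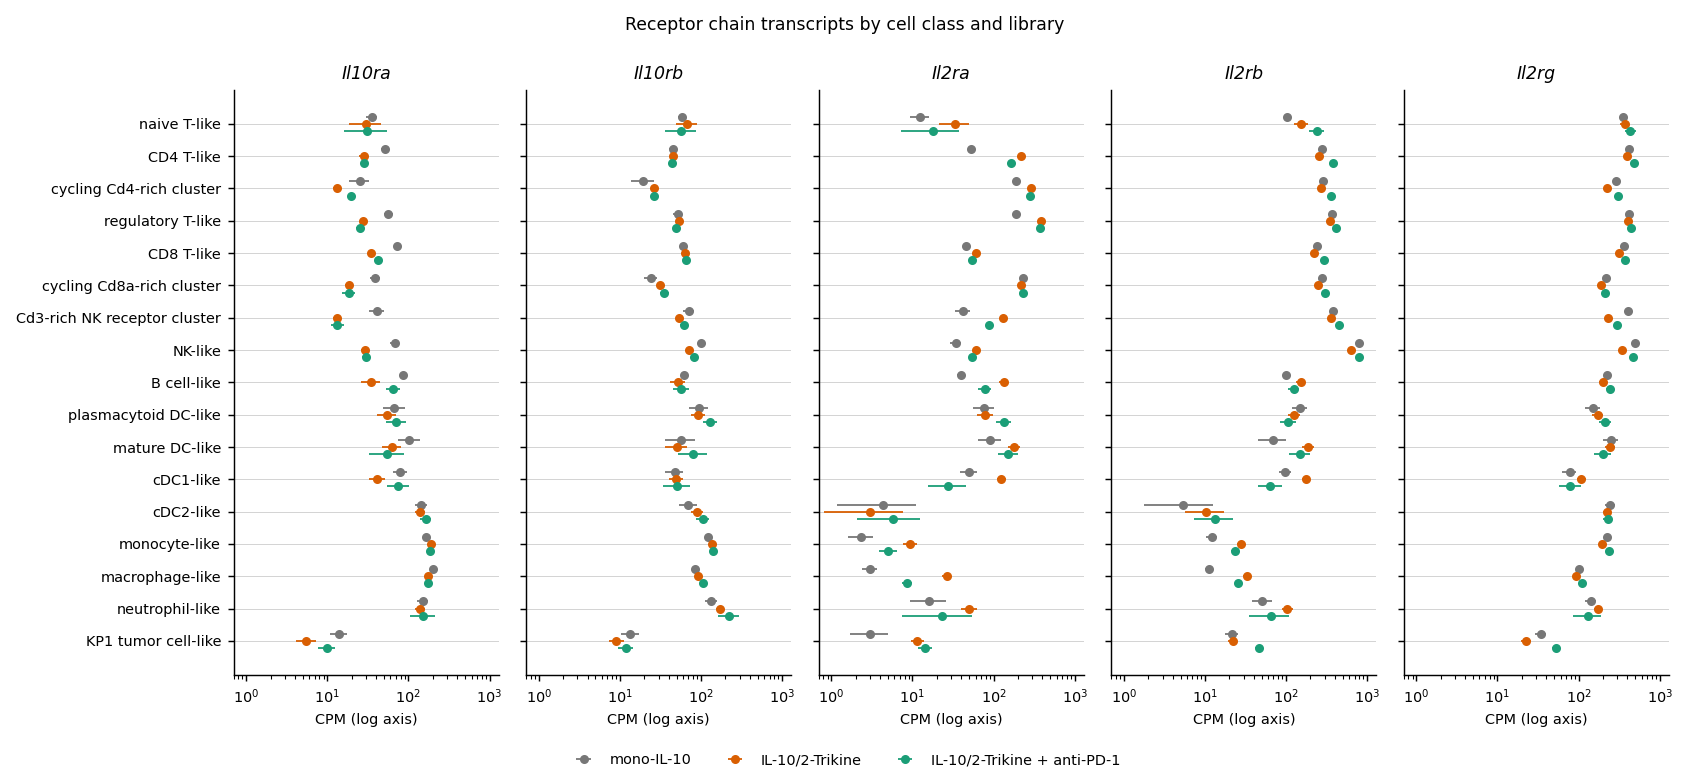
Levels of the 5 receptor chains in 17 of the cell classes (rows) in each library, as CPM on a log axis with exact Poisson 95% intervals of the counting error, 1 library per color. Il10ra lies furthest right in macrophage-like and monocyte-like cells, Il2rb lies furthest right in NK-like cells at 623 to 793 CPM, and the mono-IL-10 point for Il10ra stands apart from the other 2 in most T and NK classes.

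In T and NK cells the Il10ra level was lower in the Trikine library than in the mono-IL-10 library. CD8 T-like cells gave 73.0 CPM (69.3 to 76.9) with mono-IL-10, 34.1 CPM (31.3 to 37.1) with Trikine and 42.3 CPM (39.2 to 45.6) with the combination. NK-like cells gave 67.5 CPM (60.0 to 75.6), 29.2 CPM (25.9 to 32.6) and 29.7 CPM (26.6 to 33.2) in the same order. In both classes the mono-IL-10 interval lay above those of the other libraries. The log2 ratio of Trikine over mono-IL-10 was -1.10 (-1.24 to -0.96) in CD8 T-like, -0.86 (-1.07 to -0.65) in CD4 T-like, -1.03 (-1.26 to -0.79) in regulatory T-like and -1.21 (-1.45 to -0.97) in NK-like cells. It was -1.64 (-1.97 to -1.30) in the Cd3-rich NK receptor cluster, where the level was 40.7 CPM against 13.1 CPM, and -0.98 in the cells of that cluster without an Mki67 UMI. Naive T-like cells, the T cells that carry Ccr7, had nearly even levels, although the class was made up differently in each library, with Cd4 in 20.3%, 2.56% and 4.42% and the naive T cell gene Dapl1 in 47.5%, 15.9% and 19.5% of its cells. Their levels of 35.1, 30.2 and 31.0 CPM were within counting error of each other, with a log2 ratio of -0.22 (-0.95 to 0.44) on 157 and 21 UMIs.

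Myeloid classes were divided in this ratio of Il10ra. It was -0.24 (-0.32 to -0.16) in macrophage-like, 0.18 (0.10 to 0.27) in monocyte-like, -0.12 (-0.42 to 0.18) in neutrophil-like and -0.02 (-0.35 to 0.31) in cDC2-like cells, but -0.92 (-1.36 to -0.49) in cDC1-like and -0.71 (-1.32 to -0.10) in mature DC-like cells. The 9 T cell markers, all detected, summed to 1786, 2213 and 1527 CPM in cDC1-like and to 1197, 3729 and 1429 CPM in mature DC-like cells, and their part in these ratios was not tested. The intervals of CD8 T-like, regulatory T-like and NK-like cells did not overlap that of macrophage-like cells. B cell-like cells came from 2 clusters, of which the shallow one held 612, 0 and 57 cells, so that the class was made up differently in each library. They gave 86.9 CPM with mono-IL-10, 34.1 CPM with Trikine and 64.3 CPM with the combination, while the 8 macrophage markers, of which 7 were detected in every library, summed there to 1976, 416 and 1160 CPM. B cell-like cells without a UMI of the macrophage genes C1qa, C1qb and C1qc had Il10ra at 79.5, 32.9 and 54.6 CPM, a log2 ratio of -1.27 (-1.83 to -0.76) for Trikine over mono-IL-10.

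Background RNA moved in the same direction as Il10ra and was therefore measured beside it. Barcodes of 10 to 100 UMIs, which hold free RNA, had Il10ra at 142, 50.4 and 77.5 CPM. KP1 tumor cell-like cells had it at 13.9, 5.49 and 9.90 CPM, a log2 ratio of -1.35 (-1.88 to -0.81) for Trikine over mono-IL-10. The 8 macrophage markers, all detected in T cell-like cells in every library, summed there to 72.2, 20.4 and 52.7 CPM, and the 3 C1q genes, made by macrophages, to 62.8, 17.5 and 45.8 CPM. At the ratio of Il10ra to C1q in free RNA, these C1q UMIs would correspond to 3.34, 1.12 and 2.11 CPM of Il10ra. The level measured in T cell-like cells was 57.1, 22.6 and 27.5 CPM. In T cell-like cells without a C1q UMI the Il10ra level was 59.8, 23.5 and 29.1 CPM, and the log2 ratio of Trikine over mono-IL-10 was -1.35 (-1.45 to -1.25). The macrophage markers summed to 74.3, 19.5 and 68.6 CPM in CD8 T-like and to 71.1, 25.6 and 73.1 CPM in NK-like cells (7 of 8 detected in both), to 82.3, 16.9 and 59.5 CPM in CD4 T-like and to 56.6, 21.9 and 44.8 CPM in regulatory T-like cells, and their part in the Il10ra levels was not tested. The ratio in cells without a C1q UMI was -1.15 in CD8 T-like, -0.87 in CD4 T-like, -0.97 in regulatory T-like and -1.16 in NK-like cells.

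**Figure D2:**
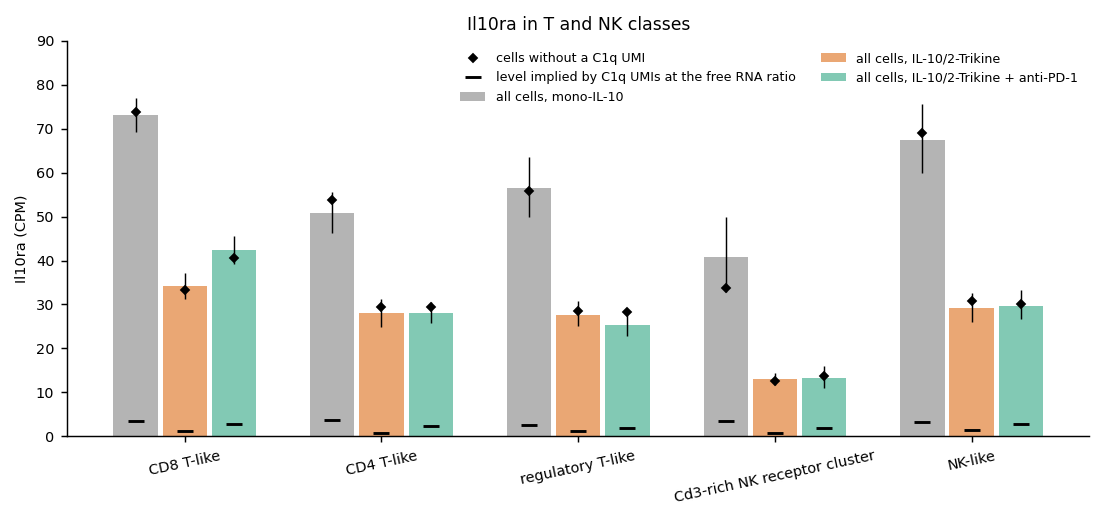
Il10ra in CPM in 5 T and NK classes of the 3 libraries, as bars from 0 with exact Poisson 95% intervals, with diamonds for cells without a C1qa, C1qb or C1qc UMI and dashes for the Il10ra level that the C1q UMIs imply at the free RNA ratio. The gray mono-IL-10 bar is the tallest in each class, for example 73.0 against 34.1 CPM in CD8 T-like cells, and no dash is above 3.71 CPM.

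Combination and Trikine libraries differed in Il10ra in some classes. The log2 ratio of combination over Trikine was 0.31 (0.15 to 0.48) in CD8 T-like cells, 0.59 (0.38 to 0.80) in the cycling Cd4-rich cluster, a cluster with Mki67 in 75.4% to 92.8% of its cells, and between -0.13 and 0.03 in CD4 T-like, regulatory T-like, Cd3-rich NK receptor and NK-like cells, with intervals that included 0. Outside these it was 0.92 (0.43 to 1.41) in B cell-like, 0.86 (0.29 to 1.42) in cDC1-like and 0.03 (-0.05 to 0.11) in macrophage-like cells. In KP1 tumor cell-like cells, which should lack Il10ra, it was 0.85 (0.32 to 1.39), at 5.49 CPM with Trikine and 9.90 CPM with the combination. Free RNA had 50.4 and 77.5 CPM in the same order, and the cycling Cd4-rich cluster 13.1 and 19.7 CPM. The part of background RNA in these ratios was not tested.

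Cycling cells had a lower Il10ra level as a share of all UMIs, but not fewer Il10ra UMIs per cell. T cell-like cells with an Mki67 UMI held 1042, 1146 and 1000 Il10ra UMIs in 1841, 4285 and 3556 cells. Those without one held 1544, 700 and 1097 Il10ra UMIs in 5636, 4819 and 7099 cells. In T cell-like cells with a UMI of the proliferation marker Mki67, the Il10ra level was 49.2, 18.1 and 21.4 CPM, and in those without one it was 64.0, 38.3 and 37.1 CPM. The share of T cell-like cells with an Mki67 UMI was 24.6% with mono-IL-10, 47.1% with Trikine and 33.4% with the combination, and the log2 ratio of Trikine over mono-IL-10 was -0.74 in cells without an Mki67 UMI and -1.44 in cells with one. The make-up of the T cells differed as well. Naive T-like cells held 9.66% of the T cell UMIs with mono-IL-10 and 0.814% with Trikine, CD8 T-like cells 43.9% and 19.0%, and the cycling Cd4-rich cluster 4.30% and 30.7%. When each subset of the Trikine library was weighted as in the mono-IL-10 library, the Il10ra level became 29.1 CPM against 57.1 CPM, a log2 ratio of -0.97.

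Il10rb, the shared chain, was found in every leukocyte class. Neutrophil-like cells led at 134, 171 and 222 CPM, followed by monocyte-like cells at 122, 136 and 142 CPM and plasmacytoid DC-like cells at 93.4, 93.0 and 130 CPM. The ranges of neighbors in this order overlapped down to NK-like cells, at 100, 72.0 and 81.7 CPM. CD8 T-like cells came next with 60.0 CPM (56.7 to 63.5), 63.6 CPM (59.7 to 67.7) and 65.1 CPM (61.3 to 69.1), and CD4 T-like cells gave 44.8, 45.1 and 44.3 CPM. These 2 subsets did not overlap, and the libraries differed little within either. The 2 cycling clusters were the lowest leukocytes in CPM, with 19.4 to 35.5 CPM, and KP1 tumor cell-like cells had 9.08 to 13.3 CPM. With all UMIs, an Il10rb UMI was found in 33.0%, 35.4% and 38.7% of cells of the cycling Cd8a-rich cluster. The share was 25.7%, 24.3% and 22.2% of CD8 T-like cells, which were shallower.

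Il10rb differed less than Il10ra between these libraries in the T cell subsets. Its log2 ratio of Trikine over mono-IL-10 was 0.08 (-0.04 to 0.21) in CD8 T-like, 0.01 (-0.18 to 0.20) in CD4 T-like and 0.06 (-0.15 to 0.28) in regulatory T-like cells. It was 0.37 (0.08 to 0.68) in the cycling Cd8a-rich cluster and -0.38 (-0.61 to -0.14) in the Cd3-rich NK receptor cluster. Over all T cell-like cells it was -0.27 (-0.35 to -0.20), which became 0.08 with the subset make-up of the mono-IL-10 library and 0.02 in cells without an Mki67 UMI. NK-like cells had the lower level with Trikine, at a log2 ratio of -0.48 (-0.65 to -0.30), and of -0.25 in cells without an Mki67 UMI. Combination over Trikine gave 0.03 in CD8 T-like, -0.03 in CD4 T-like and -0.13 in regulatory T-like cells, each with an interval that included 0, and 0.18 (0.04 to 0.33) in NK-like cells, 0.17 (0.03 to 0.32) in the Cd3-rich NK receptor cluster and 0.10 (0.03 to 0.17) over all T cell-like cells.

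Il2ra, the CD25 gene, was highest in regulatory T-like cells, the class with Foxp3 in 69.8% to 72.1% of its cells. Its level there was 191 CPM (179 to 204) with mono-IL-10, 385 CPM (374 to 396) with Trikine and 369 CPM (359 to 379) with the combination. This class was not free of CD8 T cell transcripts. Cd8b1 was found in 38.4%, 32.7% and 35.7% of its cells, against 11.0%, 14.2% and 11.8% of CD4 T-like cells. The cycling Cd4-rich cluster gave 191, 288 and 278 CPM and the cycling Cd8a-rich cluster 234, 221 and 232 CPM, and the ranges of these 3 classes overlapped from one to the next. A small ILC2-like class, type 2 innate lymphoid cells with Gata3 and Il1rl1 among their listed markers, gave 630, 853 and 1080 CPM on 38, 101 and 18 cells and was left out of the order for its size.

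The largest difference in Il2ra between Trikine and mono-IL-10 among the T and NK classes was in CD4 T-like cells, the Foxp3-poor CD4 cells. Levels there were 52.5 CPM (47.8 to 57.5), 219 CPM (210 to 228) and 162 CPM (156 to 168), so that the log2 ratio of Trikine over mono-IL-10 was 2.06 (1.91 to 2.20). Each of their subclusters had more Il2ra with Trikine. The subcluster led by Tnfsf8 and Cd40lg, a CD30 ligand and the CD40 ligand gene of helper cells, gave 26.7, 253 and 229 CPM. That led by Csf1 and Il21 gave 65.6, 162 and 138 CPM, and that led by Dthd1 and Lrig1 gave 62.7, 185 and 142 CPM. A small subcluster led by the heat shock genes Hspa1a and Hspa1b gave 28.0, 201 and 120 CPM, so that all of them had their highest level with Trikine.

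Other T and NK classes differed less in Il2ra or not beyond counting error. The log2 ratio of Trikine over mono-IL-10 was 1.01 (0.91 to 1.11) in regulatory T-like cells, 1.67 (1.38 to 1.97) in the Cd3-rich NK receptor cluster and 0.40 (0.27 to 0.53) in CD8 T-like cells, with levels of 46.0, 60.6 and 54.0 CPM in the last. Within CD8 T-like cells, the largest subcluster, led by Gm44174 and Cd8b1, gave 19.8, 49.6 and 57.8 CPM, the subcluster led by Calcb gave 71.9, 78.5 and 47.0 CPM, and that led by the interferon-induced genes Ifit3 and Ifit1 gave 39.0, 118 and 106 CPM. In the cycling Cd8a-rich cluster the ratio was -0.08 (-0.18 to 0.01), in the cycling Cd4-rich cluster 0.59 (0.44 to 0.74) and in NK-like cells 0.84 (0.58 to 1.11). Naive T-like cells, a class of different make-up in each library, had a ratio of 1.43 (0.66 to 2.15) on 55 and 23 UMIs. Combination over Trikine gave -0.43 (-0.51 to -0.36) in CD4 T-like cells and -0.58 (-0.69 to -0.47) in the Cd3-rich NK receptor cluster, whereas it was -0.06 (-0.12 to -0.01) in regulatory T-like cells.

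Il2ra differed between the Trikine and mono-IL-10 libraries in CD4 T cells whether or not Mki67 was detected. CD4 T-like cells without an Mki67 UMI gave 44.9, 168 and 139 CPM, and those with one gave 65.8, 259 and 196 CPM, at log2 ratios of 1.90 and 1.98. Regulatory T-like cells gave 226, 435 and 389 CPM without and 177, 369 and 359 CPM with an Mki67 UMI. NK-like cells were unlike these: those without an Mki67 UMI had 31.5, 33.0 and 50.3 CPM, and those with one had 41.8, 86.9 and 65.8 CPM. In the Cd3-rich NK receptor cluster the log2 ratio was 1.86 in cells with an Mki67 UMI and 0.83, under 2-fold, in those without one, and the share of its cells with such a UMI was 20.6%, 52.0% and 32.9%. The Trikine library stood above mono-IL-10 by a log2 ratio of 1.06 in NK-like cells with an Mki67 UMI and by 0.07 in those without. Background RNA held Il2ra too, with 42.4, 200 and 84.4 CPM in free RNA and 3.03 to 14.4 CPM in KP1 tumor cell-like cells, where it was likewise lowest in the mono-IL-10 library. Over all T cell-like cells, weighting the subsets as in the mono-IL-10 library brought the Trikine level from 235 to 151 CPM, against 86.4 CPM, and the log2 ratio from 1.44 to 0.80.

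**Figure D3:**
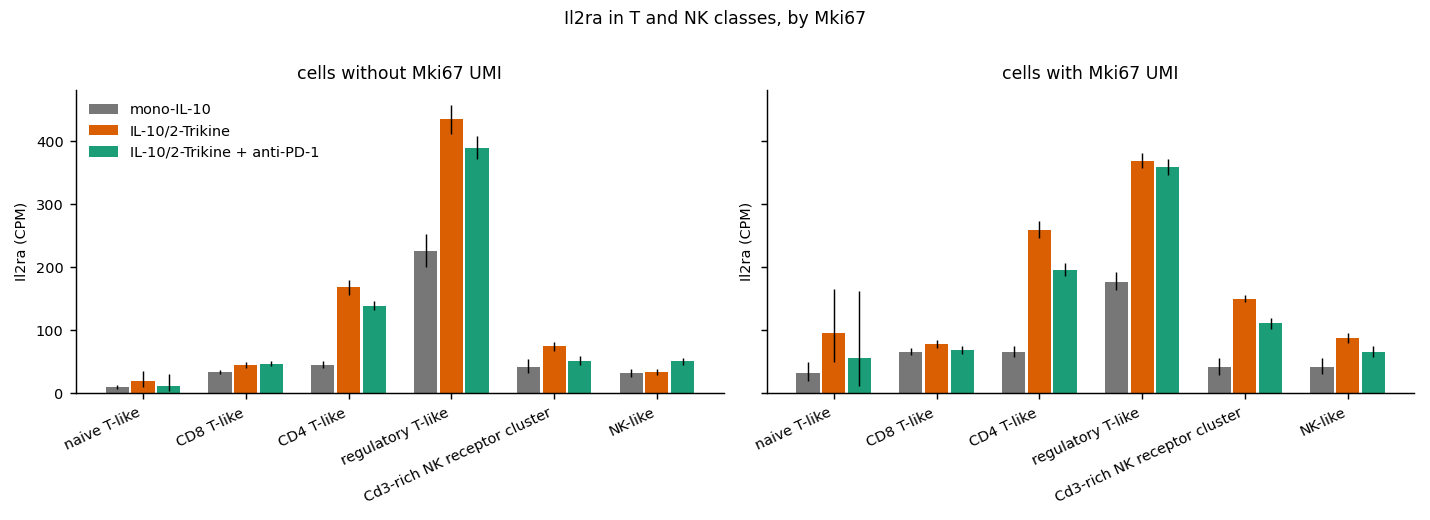
Il2ra in CPM in 6 T and NK classes, as bars from 0 with exact Poisson 95% intervals, in cells without (left) and with (right) an Mki67 UMI, 1 color per library. CD4 T-like and regulatory T-like bars of both Trikine libraries stand above mono-IL-10 in both panels, whereas in NK-like cells the Trikine and mono-IL-10 bars stand at 33.0 and 31.5 CPM on the left and at 86.9 and 41.8 CPM on the right.

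Shares of cells with an Il2ra UMI followed the levels. When 1000 UMIs were drawn from each cell that had as many, 16.6% of regulatory T-like cells had an Il2ra UMI with mono-IL-10, 29.7% with Trikine and 29.7% with the combination. For CD4 T-like cells the thinned shares were 3.56%, 12.1% and 10.2%, and for KP1 tumor cell-like cells, the background, 0.433%, 0.876% and 1.25%. With all UMIs, the shares were 52.3%, 78.2% and 75.3% of regulatory T-like cells and 1.38%, 4.99% and 5.19% of KP1 tumor cell-like cells. The median cell had 7567, 7394 and 7708 UMIs in the former and 1366, 9870 and 3201 UMIs in the latter. Thinned shares of T cell-like cells with an Il10ra UMI were 5.80%, 2.93% and 3.38%, against 0.971% to 2.16% of KP1 tumor cell-like cells. Without thinning they were 24.8%, 16.7% and 16.2% against 6.38%, 4.29% and 5.50%, and 306, 128 and 389 T cell-like cells were too shallow to be thinned.

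Il2rb was highest in NK cells, and in most T cell subsets it differed little between mono-IL-10 and Trikine. NK-like cells gave 787 CPM (761 to 813), 623 CPM (608 to 638) and 793 CPM (776 to 810), and no other class overlapped their range. The Cd3-rich NK receptor cluster with 381, 357 and 445 CPM and regulatory T-like cells with 367, 351 and 417 CPM came next. CD4 T-like cells gave 280, 258 and 375 CPM, CD8 T-like cells 238, 219 and 293 CPM and naive T-like cells 103, 154 and 240 CPM, and from the second class down to neutrophil-like cells the ranges of neighbors overlapped. Log2 ratios of Trikine over mono-IL-10 were -0.12 (-0.18 to -0.05) in CD8 T-like, -0.12 (-0.20 to -0.04) in CD4 T-like, -0.06 (-0.14 to 0.02) in regulatory T-like and -0.34 (-0.40 to -0.28) in NK-like cells. In naive T-like cells, a class of different make-up in each library, the ratio was 0.58 (0.26 to 0.89). Scaling by median-of-ratios size factors in place of total UMIs shifted the ratios of the former 4 classes by 0.09, 0.14, 0.10 and 0.10 and turned the sign in CD4 T-like and regulatory T-like cells.

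Between combination and Trikine, Il2rb was higher with the combination in each T and NK class. The log2 ratio was 0.54 (0.48 to 0.61) in CD4 T-like, 0.42 (0.36 to 0.48) in CD8 T-like, 0.25 (0.19 to 0.30) in regulatory T-like, 0.64 (0.22 to 1.06) in naive T-like and 0.35 (0.30 to 0.40) in NK-like cells. Within CD4 T-like cells, Trikine and combination gave 251 and 332 CPM in the Tnfsf8 subcluster and 344 and 440 CPM in the Csf1 subcluster. The Dthd1 subcluster gave 143 and 247 CPM, and the heat shock subcluster 255 and 257 CPM. The Csf1 subcluster held 458 of 1833 and 1635 of 3190 cells, so the make-up of the class differed. The log2 ratio was alike in T cell-like cells with and without an Mki67 UMI, at 0.42 and 0.39, and was 0.43 with the subset make-up held. KP1 tumor cell-like cells, which should lack Il2rb, had 21.4, 22.1 and 46.1 CPM, a log2 ratio of 1.06 (0.81 to 1.32) for combination over Trikine, while their 9 T cell markers, all detected, summed to 411, 387 and 704 CPM. Free RNA had Il2rb at 112, 269 and 269 CPM. Subtracting the CPM of KP1 tumor cell-like cells from each library left a log2 ratio of 0.34 in T cell-like cells.

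Il2rg, the common γ chain gene, was present across the lymphocytes. NK-like cells gave 496, 344 and 472 CPM, CD4 T-like cells 424, 391 and 485 CPM, regulatory T-like cells 415, 402 and 444 CPM, naive T-like cells 355, 372 and 433 CPM and CD8 T-like cells 367, 312 and 374 CPM, and neighbors in the order overlapped from NK-like down to neutrophil-like cells. The Trikine library was the lowest of the 3 in each of these classes other than naive T-like cells. The log2 ratio of Trikine over mono-IL-10 was -0.53 (-0.61 to -0.45) in NK-like cells, -0.83 (-0.93 to -0.73) in the Cd3-rich NK receptor cluster, -0.23 (-0.28 to -0.18) in CD8 T-like, -0.12 (-0.18 to -0.05) in CD4 T-like and -0.05 (-0.12 to 0.03) in regulatory T-like cells, and the other scaling turned the sign in the last pair. Il2rg was lower in cycling cells as a share of all UMIs, but not per cell. T cell-like cells with an Mki67 UMI held 6068, 15158 and 14597 Il2rg UMIs in 1841, 4285 and 3556 cells. Those without one held 10348, 8220 and 14579 Il2rg UMIs in 5636, 4819 and 7099 cells. T cell-like cells with an Mki67 UMI had 287, 239 and 312 CPM, and those without one had 429, 449 and 493 CPM. The log2 ratio of Trikine over mono-IL-10 in the latter was 0.07. By class, in cells without an Mki67 UMI, it was -0.37 in NK-like cells and -0.48 in the Cd3-rich NK receptor cluster. It was -0.18 in CD8 T-like and 0.11 in both CD4 T-like and regulatory T-like cells.

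**Figure D4:**
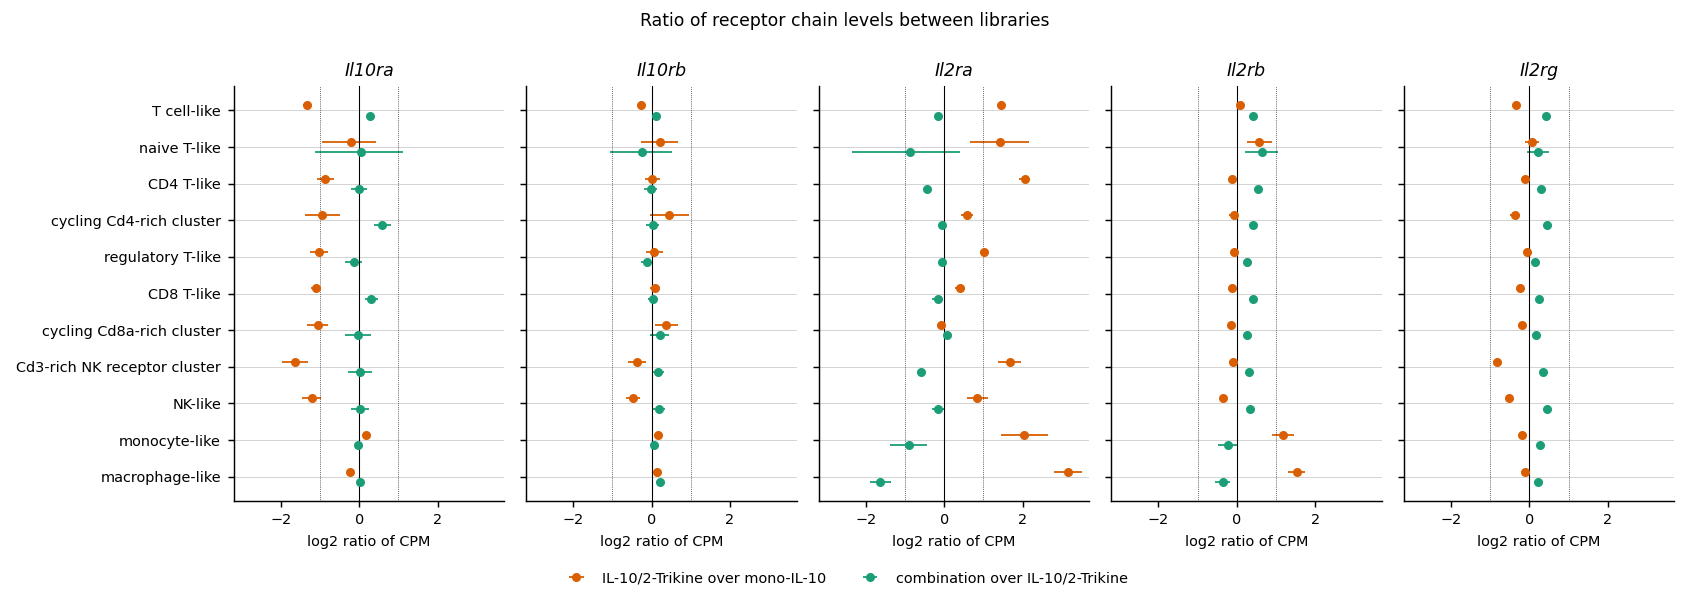
Log2 ratio of CPM between libraries for the 5 receptor chains in T, NK, monocyte-like and macrophage-like classes (rows). Intervals are exact conditional binomial 95% intervals of the counting error. Trikine over mono-IL-10 is orange, combination over Trikine is green, and dotted lines mark 2-fold. Il10ra lies left of 0 and Il2ra right of 0 in orange in most T and NK classes, as in CD4 T-like cells at -0.86 and 2.06, and green Il2rb points lie right of 0 in all of them.

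Past 2-fold in either direction, with at least 20 UMIs in the pair of libraries, were 2 of the 5 chains in T cell-like cells for Trikine over mono-IL-10, Il2ra above and Il10ra below, where 12.7% of 15382 genes were past 2-fold. In CD8 T-like cells it was 1 chain, Il10ra, beside 6.48% of all genes, and in CD4 T-like cells Il2ra, beside 9.12%. Regulatory T-like cells had Il2ra above and Il10ra below, beside 4.82%, and NK-like cells had Il10ra below, beside 7.30%. In macrophage-like cells Il2ra and Il2rb were above, beside 6.52%. For combination over Trikine none of the 5 passed in T cell-like, CD8 T-like, CD4 T-like, regulatory T-like or NK-like cells, where 4.73%, 4.98%, 5.02%, 2.99% and 4.50% of genes did, and Il2ra was below in macrophage-like cells, beside 3.76%. The 4 calls for Il10ra were not past 2-fold in cells without an Mki67 UMI, where the log2 ratio was -0.74 in T cell-like, -0.95 in CD8 T-like, -0.86 in regulatory T-like and -0.97 in NK-like cells. The Il2ra call in regulatory T-like cells was lost there too, at 0.95, and their Il10ra call was lost with median-of-ratios size factors, at -0.92, with the CPM of KP1 tumor cell-like cells subtracted, at -0.93, and without the cells of the highest doublet scores, at -0.94.

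Cells with UMIs of both Il10ra and Il2rb, chains that the Trikine binds, varied in frequency with class and depth. The pair was found in the same cell in 19.4%, 8.03% and 9.62% of CD8 T-like cells, 14.5%, 9.98% and 11.3% of CD4 T-like cells and 33.5%, 20.9% and 19.7% of regulatory T-like cells. Thinned to 1000 UMIs, between 0.602% and 1.21% of T cell-like cells had both. All of Il10ra, Il10rb and Il2rb were found in 5.82%, 5.26% and 4.82% of T cell-like cells, and in 0.501%, 0.499% and 0.623% of KP1 tumor cell-like cells. After thinning, 5 of 7171, 0 of 8976 and 2 of 10266 T cell-like cells had them all. Before thinning, the shares were 6.48%, 2.82% and 3.07% of CD8 T-like and 16.2%, 10.2% and 9.51% of regulatory T-like cells. In CD4 T-like cells they were 3.34%, 3.00% and 3.51%. Among NK-like cells, Il10ra and Il2rb stood together in 23.6%, 13.2% and 10.4%, where the product of the single shares was 22.9%, 12.5% and 10.1%. These pairs were less frequent in the Trikine than in the mono-IL-10 library, as Il10ra was.

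Cells with UMIs of all 3 chains of the trimeric IL-2 receptor were more frequent with Trikine before thinning. Il2ra, Il2rb and Il2rg were found together in 11.4%, 34.7% and 29.6% of T cell-like cells. The product of the single shares was 6.39%, 23.7% and 20.4%. After thinning, 0.418%, 0.947% and 1.33% had them all, and the product was nearer, at 0.242%, 0.840% and 1.16%. Shares were 44.8%, 64.4% and 65.5% of regulatory T-like cells, 8.79%, 24.1% and 25.5% of CD4 T-like cells and 51.7%, 79.5% and 69.6% of the cycling Cd4-rich cluster, the deepest of these classes with medians of 14084 to 18267 UMIs. After thinning, 2 of 114, 7 of 1213 and 17 of 1287 cells of this cluster had all 3, or 1.75% (0.213 to 6.19), 0.577% (0.232 to 1.19) and 1.32% (0.771 to 2.11) with exact binomial intervals, which give no order of the libraries. In KP1 tumor cell-like cells the share was 0.751%, 2.59% and 3.01%.

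Outside the T and NK classes, Il2ra and Il2rb were measured beside T cell transcripts, whose part in their levels was not tested. Macrophage-like cells had Il2ra at 3.00, 26.6 and 8.56 CPM and Il2rb at 11.3, 32.7 and 25.4 CPM, and their 9 T cell markers, all detected, summed to 198, 519 and 314 CPM. A calculated Il2ra level was taken from the Cd3 UMIs of macrophage-like cells and the ratio of Il2ra to Cd3 genes in T cell-like cells. It was 2.56, 23.7 and 9.78 CPM, for the combination above the 8.56 CPM measured. Macrophage-like cells without a Cd3d, Cd3e or Cd3g UMI had 1.73, 5.79 and 4.73 CPM. A gate on marker UMIs in place of clusters brought the log2 ratio of Trikine over mono-IL-10 from 3.15 to 1.44. In cDC1-like cells Il2ra was at 49.5, 125 and 27.5 CPM, and no UMI of it was left in the 60, 54 and 25 cells without a Cd3 UMI, which allows up to 6.87, 7.97 and 15.1 CPM. B cell-like cells went from 39.5, 133 and 78.2 CPM to 7.49, 23.5 and 7.88 CPM in the same way.

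Mature DC-like cells, the migratory dendritic cells with Ccr7 and Fscn1, had Il2ra UMIs also where no Cd3 UMI was found. Il2ra levels were 90.9, 179 and 153 CPM in all of them and 87.0 CPM (50.7 to 139), 245 CPM (157 to 365) and 93.8 CPM (51.3 to 157) in those without a Cd3 UMI, on 17, 24 and 14 UMIs in 34, 26 and 32 cells. The intervals of mono-IL-10 and Trikine did not overlap, although so few cells came from 1 library each. Of Il2rb, 1, 1 and 2 UMIs were found in these cells.

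Il2rg was found in monocyte-like, cDC2-like and B cell-like cells at similar levels in all cells and in those without a Cd3 UMI. In cells without a Cd3 UMI its level was 221, 194 and 232 CPM in monocyte-like, 253, 222 and 226 CPM in cDC2-like and 203, 197 and 241 CPM in B cell-like cells, close to the 222, 196 and 236, the 245, 225 and 230, and the 225, 198 and 241 CPM of all cells of these classes. Macrophage-like cells had 101, 93.5 and 109 CPM in all and 97.5, 74.8 and 99.5 CPM without a Cd3 UMI. KP1 tumor cell-like cells had 34.0, 22.6 and 52.3 CPM in all and 14.3, 5.66 and 13.6 CPM without a Cd3 UMI.

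**Figure D5:**
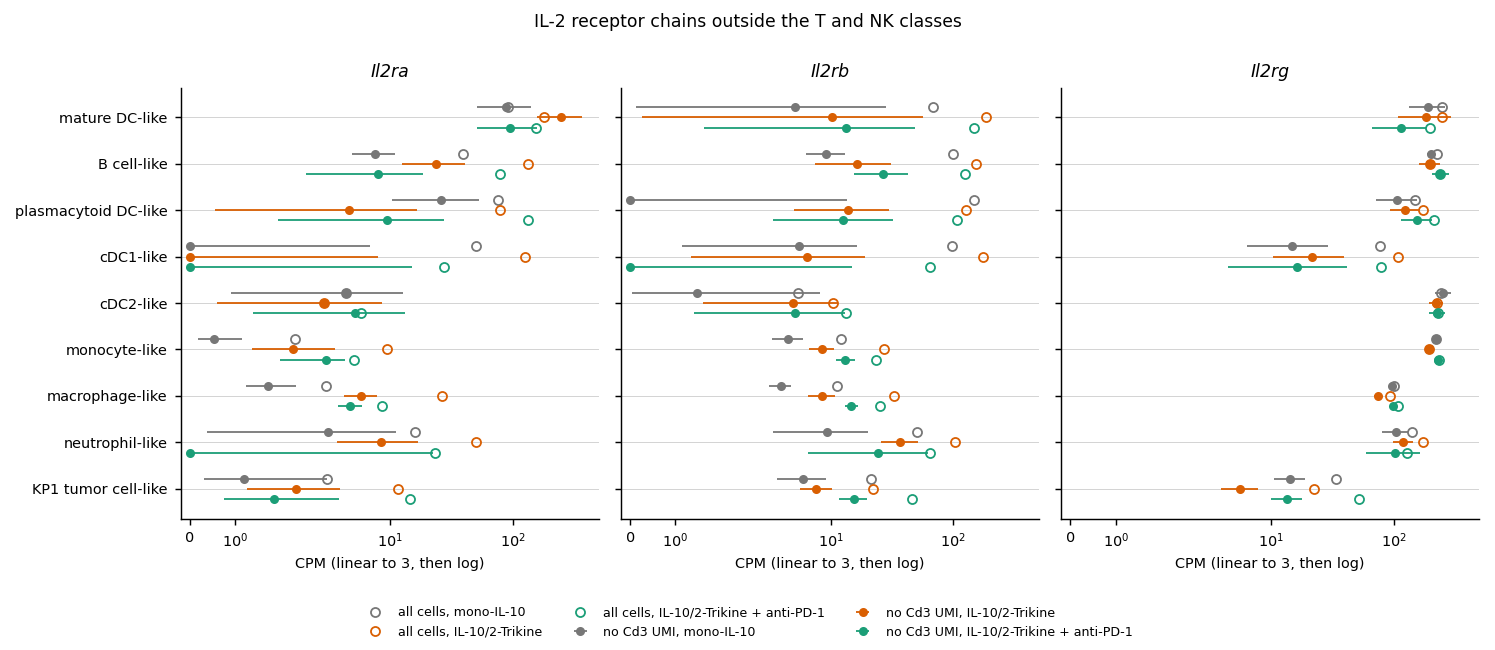
Il2ra, Il2rb and Il2rg outside the T and NK classes in CPM, on an axis that is linear up to 3 and logarithmic above, with open circles for all cells of a class and filled circles with exact Poisson 95% intervals for cells without a Cd3d, Cd3e or Cd3g UMI. Filled circles of Il2ra fall far left of the open ones in cDC1-like cells, where they are at 0. In mature DC-like cells the filled circle of Il2ra lies right of the open one with Trikine and left of it in the other libraries. Filled circles of Il2rg stay near the open ones in monocyte-like, cDC2-like and B cell-like cells.

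Of 30 other genes of these pathways (ligands, partner receptor chains, Janus kinases, STATs and feedback inhibitors), 28 had at least 20 UMIs in T cell-like cells for Trikine over mono-IL-10, of which 1 was past 2-fold above and 4 below, where 3.61% of all genes were above and 9.11% below. Their median log2 ratio was -0.53, beside -0.17 over all genes tested. The one above was Socs2, a feedback inhibitor that STAT5 induces, at 8.94 CPM with mono-IL-10, 44.5 CPM with Trikine and 38.2 CPM with the combination. It was also past 2-fold in CD8 T-like cells, at 4.89 against 10.4 CPM, in CD4 T-like cells, at 13.1 against 99.9 CPM, in regulatory T-like cells, at 22.5 against 67.6 CPM, and in NK-like cells, at 5.03 against 12.8 CPM. Those below were all at low levels. They were the ligand genes Il2, at 2.56 against 1.19 CPM, and Il15, at 0.817 against 0.343 CPM. The others were the interferon-λ receptor chain Ifnlr1, at 0.839 against 0.110 CPM, and the interferon-γ receptor chain Ifngr2, at 7.55 against 2.36 CPM. Ifnlr1 was also a leading gene of a macrophage-like cluster, and the part of background RNA in its level was not tested. Il2 was not past 2-fold in CD8 T-like cells, at 1.30 against 0.824 CPM, or in CD4 T-like cells, at 6.04 against 4.08 CPM, and had 5 and 14 UMIs in regulatory T-like cells, under the minimum. Ifngr2 was also below in CD8 T-like cells, at 1.90 against 0.697 CPM on 38 and 11 UMIs, and was at 4.25 and 4.54 CPM in CD4 T-like cells. It was a leading gene of naive T-like cells, which held 9.66% of the T cell UMIs with mono-IL-10 and 0.814% with Trikine. The part of this make-up in the Ifngr2 level was not tested. In NK-like cells, where 4.11% of all genes were above and 3.19% below, 1 of 23 was above and 1 below, the latter Socs3, a feedback inhibitor that STAT3 induces, at 203 CPM with mono-IL-10 and 92.4 CPM with Trikine.

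The kinase genes Jak1, Jak2, Jak3 and Tyk2 and the transcription factor genes Stat3, Stat5a and Stat5b stayed under 2-fold in T cell-like cells, with log2 ratios of Trikine over mono-IL-10 from -0.72 for Stat5b to -0.20 for Jak2, and from 0.16 for Jak1 to 0.62 for Stat3 for combination over Trikine. For that contrast 1 of 29 was past 2-fold, where 3.11% of all genes were above and 1.62% below. It was Ifnlr1, above on 9 and 42 UMIs, and the part of background RNA in it was not tested. The median log2 ratio of the 29 was 0.36 beside 0.05 over all genes. Counts in the other classes for Trikine over mono-IL-10 were 1 above and 2 below of 24 in CD8 T-like cells, beside 1.68% above and 4.81% below of all genes, and 2 and 0 of 25 in CD4 T-like cells, beside 3.28% and 5.85%. They were 1 and 1 of 24 in regulatory T-like cells, beside 2.03% and 2.79%, and 2 and 1 of 25 in macrophage-like cells, beside 4.75% and 1.77%. For combination over Trikine they were 2 and 0 of 23 in CD8 T-like cells, beside 3.56% and 1.42% of all genes, 1 and 2 of 26 in CD4 T-like cells, beside 2.70% and 2.31%, and 1 and 0 of 25 in regulatory T-like cells, beside 1.93% and 1.06%. NK-like cells had 0 and 0 of 24, beside 1.72% and 2.78%, and macrophage-like cells 0 and 1 of 24, beside 1.51% and 2.26%.

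Across 48 sums of 16 classes in 3 libraries, the pattern of each chain was set beside 7088 genes as Pearson's r of log2(CPM + 1), a description in which sums of 1 library share its free RNA. Nearest to Il10ra were Sbno2 (r = 0.938), Sat1, Picalm, Man2b1 and Tet2, and nearest to Il10rb were Adgre5 (r = 0.932), Fuca2, Susd6, Trim30a and Irak2. Il2ra lay nearest to Tnfrsf9 (r = 0.938), which encodes 4-1BB, and to Tnfrsf18 (GITR), Ctla4, Gjb2 and Ikzf2, of which Tnfrsf9, Ctla4 and Ikzf2 were also markers used to name regulatory T-like cells. Il2rb lay nearest to Nkg7 (r = 0.978), a gene of cytotoxic granules, then Sytl3, Sh2d2a, Gm19585 and Serpinb6b. For Il2rg they were Shisa5 (r = 0.953), Capn1, Cnn2, Arhgap9 and Sri. Among the chains themselves, r was 0.80 for Il10ra with Il10rb, 0.83 for Il2ra with Il2rb, 0.61 for Il2rb with Il2rg and -0.50 for Il10ra with Il2rb.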

How the data were processed

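CD45+ cells of KP1 tumors from mono-IL-10, IL-10/2-Trikine and combination groups were sequenced with 10x 3′ v3.1 chemistry. The deposited matrices hold raw UMI counts per gene and barcode, made by the authors with Cell Ranger (version 8.0.0 in the file headers, another in the methods). Empty droplets are included and no column was left out. The genome build differs between labels and methods, so no coordinates or sequences are given.

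Cells needed 200 genes and no more than 20% mitochondrial UMIs. The methods give these limits and count fewer cells. Counts scaled to 10000 were clustered over 2000 variable genes, 30 components, 20 neighbors and Leiden resolution 1 (26 clusters), and T and NK cells again into 17 (Python 3.11.15, numpy 2.4.6, scipy 1.17.1, pandas 2.3.3, scanpy 1.11.5, anndata 0.12.19, igraph 0.11.9, scikit-learn 1.9.0, matplotlib 3.10.9, seed 1). A class name with "-like" needed 3 markers at 1.5-fold and in 10% of cells. After the clusters were seen, regulatory T-like was made to need Foxp3, clusters with Cd3e in 50% of cells beside NK or macrophage markers were set apart, and 2 unnamed cycling clusters were called by Cd4 and Cd8a. A further 8355 cells stayed unnamed.

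UMIs were summed per class and library. Sums of 1 library per group allow no test, p-value or replicate error. UMI intervals assume independent molecules. Named genes were the 5 chains, pathway genes past 2-fold in T cell-like or NK-like cells, and the 5 genes nearest to each chain among those of at least 50 CPM, over classes of at least 50 cells per library. Subclusters are named by leading genes. The chains, lists and rules were chosen with earlier results of these data known. The code for ratios was tested on simulated counts. Alternatives are listed in the closing section.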

Additional observations from a re-analysis of the deposited data

How the results depend on the processing

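Log2 ratios of Trikine over mono-IL-10 in T cell-like cells moved as follows. Median-of-ratios size factors gave -1.16 for Il10ra, -0.09 for Il10rb, 1.62 for Il2ra, 0.25 for Il2rb and -0.16 for Il2rg. Cells without an Mki67 UMI gave -0.74, 0.02, 1.67, 0.25 and 0.07 in this order. A gate on Cd3, Ncr1, C1q and Cd79 UMIs in place of clusters gave -1.22 for Il10ra, 1.64 for Il2ra, 0.19 for Il2rb and -0.42 for Il2rg, and clusters at resolution 2 gave -1.25 for Il10ra, 0.11 for Il2rb and -0.27 for Il2rg. Without naive T-like cells Il2ra was at 1.33 and Il2rb at -0.01, and with the CPM of KP1 tumor cell-like cells subtracted Il10rb was at -0.18. For combination over Trikine, size factors gave -0.22 for Il2ra, 0.37 for Il2rb and 0.37 for Il2rg. Cells without an Mki67 UMI gave -0.05 for Il10ra, -0.07 for Il10rb, -0.05 for Il2ra, 0.39 for Il2rb and 0.13 for Il2rg. The gate gave -0.20 for Il2ra and 0.49 for Il2rg, resolution 2 gave -0.12 and 0.37 for the same pair, and the subtraction gave 0.04, 0.00, -0.20, 0.34 and 0.32 for the 5 chains. Neutrophil-like cells changed sign for Trikine over mono-IL-10: Il2ra, 1.64 in all cells, was -0.19 without Mki67 UMIs and -1.20 without the tenth of cells with the highest Scrublet doublet scores, and Il2rb, 1.03 in all cells, was -0.05 and -1.24. In macrophage-like cells the gate gave 1.44 for Il2ra and 1.11 for Il2rb, against 3.15 and 1.53 in clusters. The cause of these moves was not tested. Of 110 log2 ratios, 20 were past 2-fold, and of the 139 alternative values of these, 4 lay on the other side of 0 and 19 under 2-fold. A minimum of 500 genes and subtraction of free RNA at 2% of each class moved none of the 110 beyond counting error. Thinning to 500 in place of 1000 UMIs lowered the thinned shares, of T cell-like cells with an Il10ra UMI to 2.89% with mono-IL-10. Scrublet called 12.5% of mono-IL-10 cells and 0 in the other libraries, so it had not worked, the planned removal of called doublets was not run, and doublets were kept. The alternatives with naive T-like cells, KP1 tumor cell-like CPM, Scrublet scores, a shallow macrophage-like cluster, C1q and Cd3 were chosen after seeing the data. No paired analysis was possible because each group is 1 library.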
